A study of Nematostella vectensis with 16 samples.

Results

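A set of 23 gene models of the starlet sea anemone, Nematostella vectensis, was close to silent in untreated animals and clearly detected after a day in mercury. They were chosen from 27273 gene models by the levels themselves, given as CPM, the gene's counts scaled to a common library total. The mean of the controls had to be under 1 CPM and the mean of the mercury (Hg) pools at least 2 CPM and at least 4 times the control mean. Every Hg library had to lie above every control, which held for 12.3% of all gene models with a count, and the Hg mean could not be below the copper (Cu) mean. The levels in Hg and control pools are therefore a description of the choice, with no test, and tests are read only for contrasts among Cu, cadmium (Cd) and zinc (Zn).

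Whole anemones aged 2 to 4 months were studied in 5 groups, all kept at 18 °C and 12.5 ppt salinity in darkness. Metal groups held 3 pools of 5 animals each, exposed for 24 h to 100 µg/L of HgCl2, CuCl2, CdCl2 or ZnCl2, and the control group held 4 untreated pools. RNA of each pool gave 1 library, 16 in all. The labels give no strain and no further agent, and since RNA came from whole pooled animals, more cells of a type and more RNA per cell cannot be told apart.

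Nematostella is a small burrowing cnidarian of brackish marshes and a laboratory model for its phylum. Copper and zinc are essential metals, used as cofactors by many enzymes, whereas mercury and cadmium have no known general role in animals and bind strongly to the thiol groups of proteins. Animals exposed to such metals commonly raise transcripts for metal-binding, chaperone and antioxidant proteins, and some stress genes are hardly transcribed until the stress arrives. Whether any of the 23 genes belong to these classes could not be read from the identifiers. The files give each model a number of the v1g series with no description, and 0 of the 23 matched the RefSeq gene table of assembly jaNemVect1.1, so no name, function, position or sequence is given for any of them.

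Libraries held between 5494659 and 8113825 counts, both in the Hg group, so that 1 CPM stood for 5.49 to 8.11 counts and a level of 0.2 CPM for about 1 count. Libraries of the same group also differed from each other along a component that held 24.8% of the within-group variance. Controls 1 and 2, Hg 3, Cu 3, Cd 1 and Zn 3 lay on its high side, and the tests were repeated without these 6 libraries. No 2 libraries were identical.

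Near-silence was common, and few of the near-silent models passed the thresholds in mercury. Control means were under 1 CPM for 10837 models, 39.7% of all, and 45 of these reached a mean of 2 CPM in Hg, of which 23 also reached 4 times their control mean. All 23 satisfied the other conditions too, so the requirements of no overlap and of a Hg mean at least as high as in Cu removed none. The 23 made up 0.212% of the near-silent models, which include 3705 models with no count in any library. With the same thresholds applied to another metal against the same controls, 5 models were chosen in Cu, all of them among the 23, 1 in Cd and 0 in Zn. None of the 23 was entirely absent from the controls: each had at least 1 count there, and 5 had between 1 and 3 counts over all 4 control libraries. Of the 10837 near-silent models 5702 had a control count. The share among models of like level in Hg was not determined, so the count is not read as particular to the set.

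Together the 23 genes gave 8.9 to 11.4 CPM in the control libraries, 187 to 220 CPM in Hg, 32.3 to 50.5 CPM in Cu, 11.9 to 15.3 CPM in Cd and 10.9 to 15 CPM in Zn. The group means of this sum were 10.1 ± 1.2 CPM (SD, n = 4) in controls, 203 ± 16 in Hg, 40.7 ± 9.2 in Cu, 13.4 ± 1.7 in Cd and 13.2 ± 2.1 in Zn (SD, n = 3 each). The Hg libraries were the highest and the Cu libraries lay between them and all others, without overlap, while Cd and Zn overlapped each other. The Zn range overlapped the controls, and the lowest Cd library at 11.9 CPM lay just above the highest control at 11.4 CPM. The most abundant gene supplied 25.9% of the sum in Hg, and without it the Hg mean was 150 ± 21 CPM (SD, n = 3). The Cu mean was then 33.5 ± 7 CPM (SD, n = 3) and the control mean 9.9 ± 1.2 CPM (SD, n = 4).

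**Figure D1:**
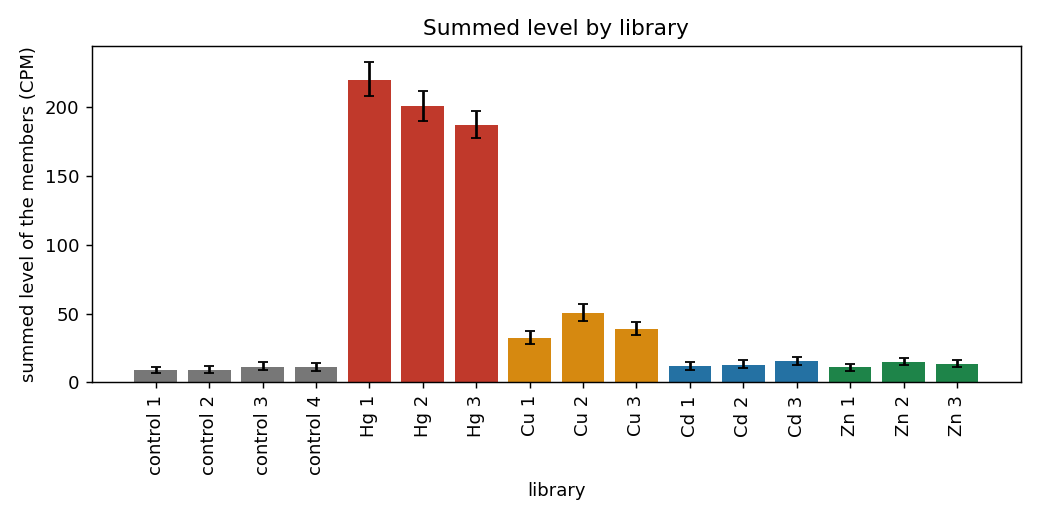
Summed level of the 23 genes (CPM) in each of the 16 libraries, coloured by group, with exact 95% binomial intervals that cover counting error only. The Hg libraries stood at 187 to 220 CPM, the Cu libraries at 32.3 to 50.5 CPM and all other libraries at 8.9 to 15.3 CPM.

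Single genes spanned a wide range. Control means ran from 0.0413 to 0.97 CPM with a median of 0.499, and Hg means from 2.17 to 52.4 CPM with a median of 4.35. Hg means were at least 10 CPM for 6 genes, between 4 and 10 CPM for 6 and between 2 and 4 CPM for 11. The ratio of Hg to control mean had a median of 8.86 and ran from 4 to 311. It was under 8 for 10 genes and at least 32 for 7, so the set joins genes with a strong response to genes close to the limit of the choice.

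**Figure D2:**
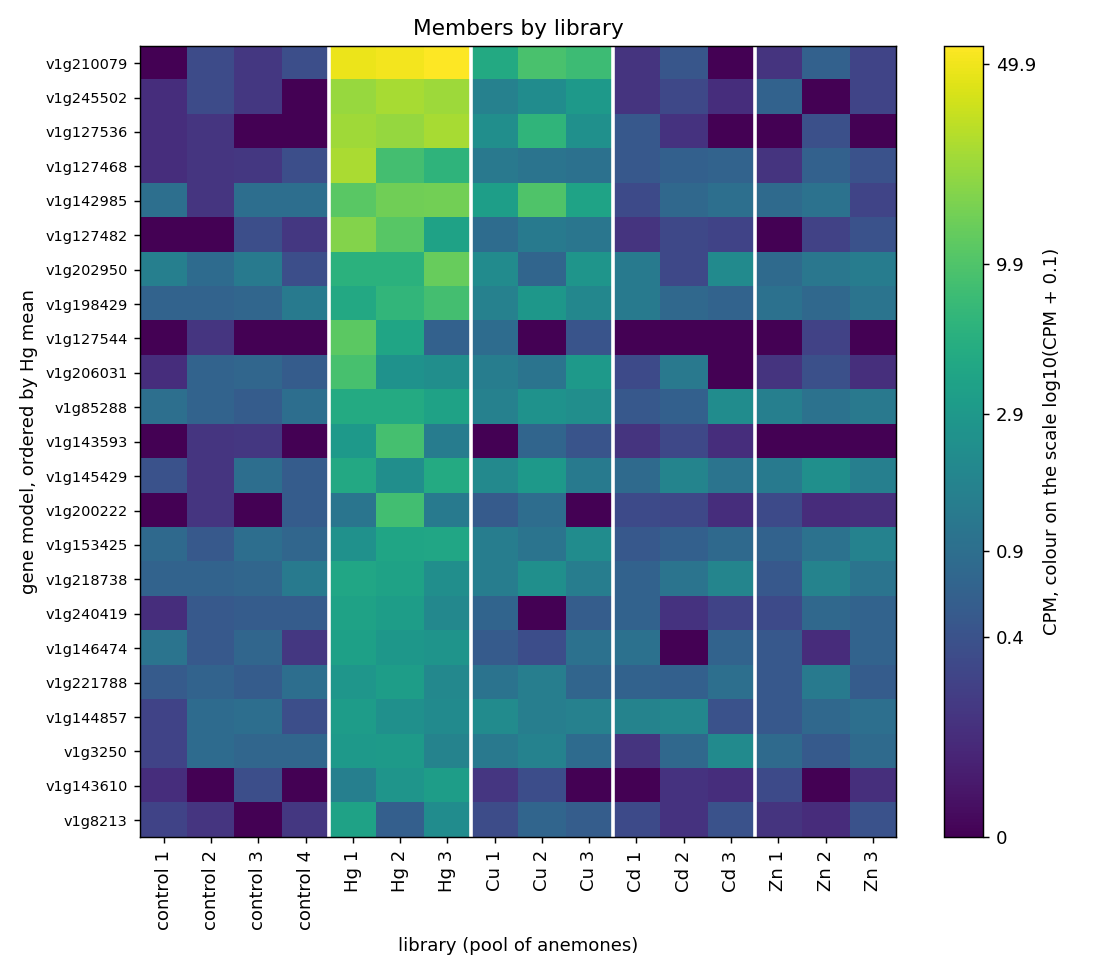
Level of each of the 23 genes (rows, ordered by Hg mean) in each of the 16 libraries (columns), with CPM shown as colour on the scale log10(CPM + 0.1). The Hg columns are brighter than the control columns in every row by choice, and the Cu columns are intermediate in the upper rows.

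The gene with the highest level in mercury was v1g210079. It measured 0, 0.33, 0.179 and 0.363 CPM in controls 1 to 4, that is 5 counts in all, and 48, 51.7 and 57.6 CPM in the Hg pools. The Cu pools had 4.61, 9.3 and 7.64 CPM, the Cd pools 0.16, 0.452 and 0 CPM, and the Zn pools 0.16, 0.628 and 0.266 CPM. All Hg pools were high and alike, all Cu pools lay between Hg and the rest without overlap, and no Cd or Zn pool passed 0.628 CPM.

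v1g245502 came second, at 21.8, 24.8 and 22.7 CPM in the Hg pools and 0.131, 0.33, 0.179 and 0 CPM in the controls. Its Cu pools had 1.54, 2.11 and 2.92 CPM, the Cd pools at most 0.301 CPM and the Zn pools at most 0.64 CPM. The Cu pools again lay above every control, Cd and Zn pool, and its Cu mean of 2.19 ± 0.69 CPM was 9.46% of its Hg mean of 23.1 ± 1.6 CPM (SD, n = 3).

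v1g127536 had the largest ratio of Hg to control mean. Controls 1 and 2 held 1 count each and controls 3 and 4 none, while the Hg pools had 23.1, 21 and 24.9 CPM from 473 counts. The ratio of summed counts after scaling to library totals was 287, with an exact 95% counting interval of 79 to 2380. That interval covers counting error only and leaves out differences between pools. The Cu pools had 2.22, 6.32 and 2.36 CPM, and Cu 2 was well above the other pair.

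v1g142985, picked out as the remaining member called in the tests given further on, had the highest Cu share of its Hg mean among the 6 genes of at least 10 CPM in Hg. It had 0.916, 0.165, 0.894 and 0.906 CPM in controls, 11.3, 14.5 and 14.7 CPM in Hg and 3.42, 9.83 and 3.89 CPM in Cu. Its Cu mean was 42.4% of its Hg mean, with Cu 2 again the highest Cu pool, and its Cd and Zn means of 0.665 and 0.69 CPM were close to the control mean of 0.72 CPM. These 4 genes also had similar levels in the 3 Hg pools, with the highest pool 1.14 to 1.3 times the lowest.

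**Figure D3:**
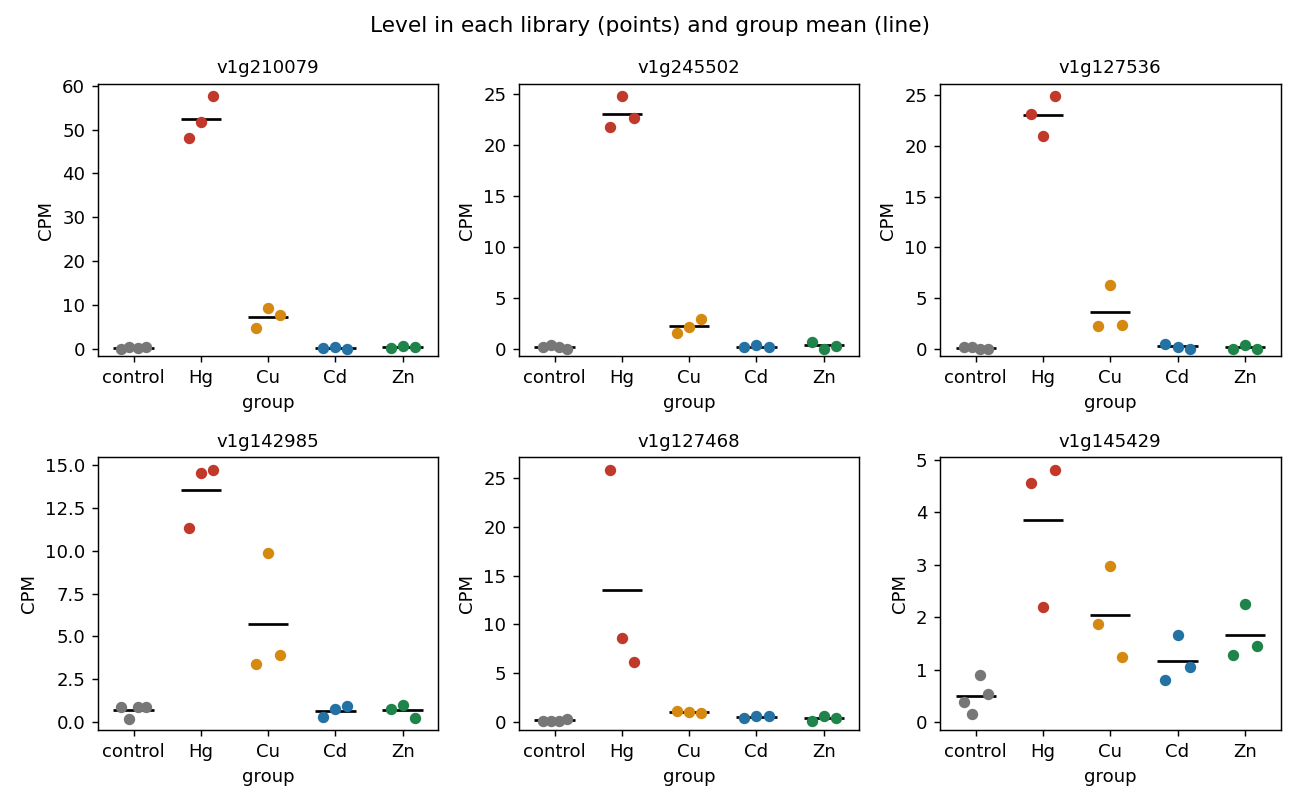
Levels (CPM, linear axes of different range) of 6 genes in each library, with points for pools and a line for the group mean. The upper 3 panels and v1g142985 show tight Hg pools and raised Cu pools, v1g127468 shows Hg 1 at 25.8 CPM above Hg 2 and Hg 3, and v1g145429 shows a Zn mean of 1.67 CPM, 43.3% of its Hg mean.

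Some of the other members differed strongly between the Hg pools. Over the 23 genes the highest Hg pool was a median of 1.92 times the lowest, against 1.33 for the 16157 tested genes with a count in every Hg library. Over 3 times was reached by 7 members, and in 8 a single pool supplied over 50% of the summed Hg level. That pool was Hg 1 for 5 genes, Hg 2 for 2 and Hg 3 for 1. The chi-square statistic divided by its degrees of freedom was over 3 across the Hg counts in 10 members, more than counting error alone tends to give. The share of all genes past these limits was not determined, so the counts are not read as particular to the set. Low counts widen such ratios in the weaker members, and the part of depth in the difference from other genes was not tested.

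The members below were picked out for this spread after their values were seen, apart from v1g127468, which has the lowest Cu share among genes above 10 CPM in Hg. v1g127468 had 25.8 CPM in Hg 1, 8.62 in Hg 2 and 6.16 in Hg 3, against 0.131 to 0.363 CPM in controls. v1g127482 had 17.7, 11.1 and 3.82 CPM in the same pools and at most 0.357 CPM in any control. In both genes Hg 1 was highest and Hg 3 lowest. Their Cu pools, at 0.854 to 1.23 CPM, lay far below Hg 1 yet above every control, Cd and Zn pool of the same gene.

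v1g127544 spread most, at 11.5, 4.09 and 0.616 CPM in the Hg pools, which were 63, 28 and 5 counts. Its controls held 1 count in all, so that the ratio of summed counts of 116 has a counting interval of 20.4 to 4650, which leaves out the spread between its Hg pools. The Cd pools held no count, where 3 counts over the group would be 0.147 CPM. Hg 3 thus lay within the range of its Cu pools, which had 0 to 0.854 CPM.

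v1g206031 was likewise highest in Hg 1, at 8.92 CPM against 2.48 and 2.22 CPM, and Cu 3 at 2.92 CPM exceeded the lower pair of Hg pools. v1g8213 had 3.82, 0.585 and 2.1 CPM in the Hg pools and at most 0.262 CPM in controls. These are 2 of the 5 genes in which Hg 1 supplied most of the level. Hg 1 was also the shallowest Hg library and lay on the low side of the within-group component, beside Hg 2, and the part of either in the result was not tested.

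Hg 2 stood out in v1g200222 and v1g143593. v1g200222 had 8.33 CPM in Hg 2 against 1.09 and 1.23 CPM in Hg 1 and Hg 3, and Hg 2 supplied 78.2% of its Hg level. v1g143593 had 2.91, 8.77 and 1.36 CPM in the Hg pools, at most 0.179 CPM in controls and no count in any Zn pool, where 3 counts over the group would be 0.138 CPM. In both, the other Hg pools were still above every control.

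v1g202950 was the 1 member dominated by Hg 3, with 5.64, 5.7 and 13.2 CPM in the Hg pools. Its controls, at 1.44, 0.826, 1.25 and 0.363 CPM, gave the highest control mean of the set. Its Cu, Cd and Zn pools ranged from 0.301 to 2.64 CPM and overlapped the controls.

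**Figure D4:**
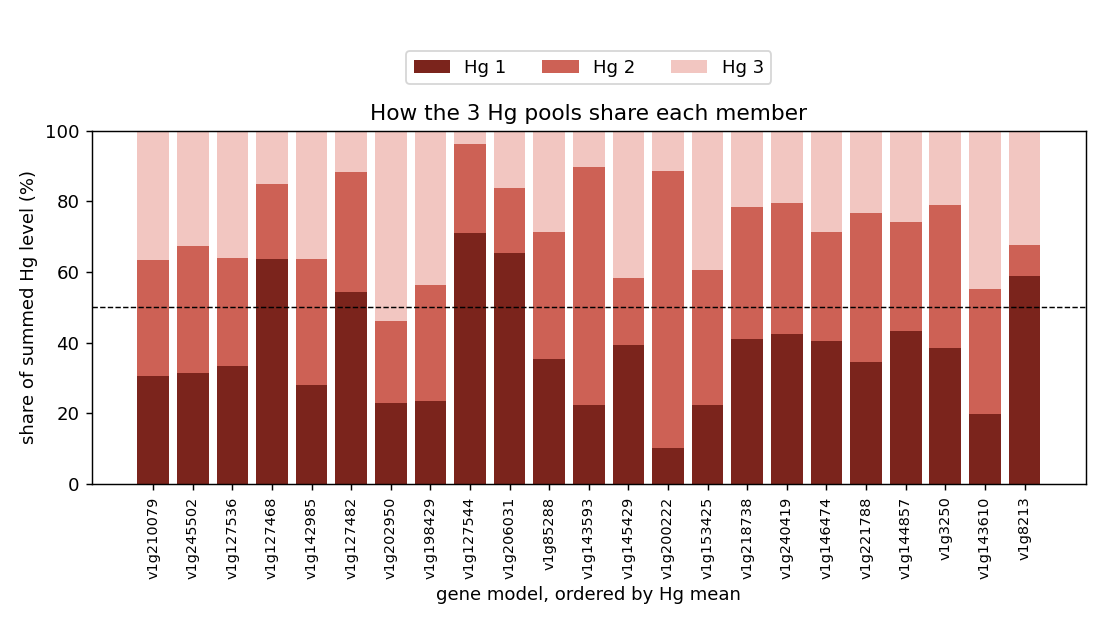
Share of the summed Hg level (%) that each of the 3 Hg pools supplied for each of the 23 genes, ordered by Hg mean, with a dashed line at 50%. The shares of the 3 pools are close to equal for v1g210079, v1g245502 and v1g127536, while Hg 1 passes 50% in 5 genes, Hg 2 in 2 and Hg 3 in 1.

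In the other members the highest Hg pool was at most 2.29 times the lowest. v1g198429 measured 4.55, 6.43 and 8.5 CPM in the Hg pools and 0.654 to 1.27 CPM in the controls, and v1g85288 measured 4.73, 4.82 and 3.82 CPM against 0.536 to 0.916 CPM. v1g153425 (mean 3.55 CPM in Hg), v1g218738 (3.4 CPM), v1g240419 (3.01 CPM), v1g146474 (3 CPM), v1g221788 (2.65 CPM) and v1g3250 (2.53 CPM) had control means of 0.427 to 0.825 CPM. v1g143610 had the second lowest Hg mean of the set, with 1.46, 2.63 and 3.33 CPM in the Hg pools, but held 3 counts in all the controls together, a ratio of 21.4 with a counting interval of 6.95 to 107. For genes of this level a few counts per library decide the ratio.

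Several members sat at the edge of the choice. v1g3250 and v1g221788 had Hg to control ratios of 4 and 4.03, and v1g223845 and v1g213364, just outside, had 3.64 each. v1g8213 and v1g143610 had the lowest Hg means inside, at 2.17 and 2.47 CPM, while v1g207814 and v1g230447 missed with 1.98 and 1.6 CPM. v1g202950 and v1g198429 had the highest control means inside, at 0.97 and 0.825 CPM, and v1g207959 and v1g242464 missed with 1.07 and 1.08 CPM. The latter had a Hg mean of 16.2 CPM, above that of all but 3 members.

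Copper was the second highest group for most members. The Cu mean was above both the Cd and the Zn mean in 22 of 23 genes, the exception being v1g240419 with 0.413 CPM in Cu and 0.579 CPM in Zn. As a share of the Hg mean, the Cu mean had a median of 22% and ran from 7.04% to 65.7%, being under 20% in 10 genes, 20 to 50% in 11 and at least 50% in 2. The latter were v1g144857 (Cu mean 1.66 ± 0.34, Hg mean 2.53 ± 0.67 CPM) and v1g145429 (2.04 ± 0.88 and 3.85 ± 1.4 CPM; SD, n = 3 throughout). The highest Cu library was Cu 2 in 14 genes, Cu 3 in 5 and Cu 1 in 4. Shares over all genes were not determined for the order of the means or for the highest Cu library, so these counts are description. In 17 genes every Hg library lay above every Cu library, against 13.4% of all genes with a count, a comparison in which the choice favoured Hg. Every Hg library lay above every Cd library in 22 genes, all but v1g3250, and above every Zn library in 22, all but v1g145429, against 13.6% and 16.4% of all genes with a count. The choice set the Hg libraries high in these comparisons as well, so both counts are description and no result on Cd or Zn.

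Whether copper differed from cadmium and zinc in these genes could be tested, since the choice used neither Cd nor Zn and bounded Cu only from above. Of the 23 genes 18 passed the filter on low counts, which was set over all 16 libraries, Hg included. From the libraries of the compared groups alone 7 members passed it in Cu against Cd and 7 in Cu against Zn, so most of the 18 entered through their level in other groups. In 4 of them, v1g210079, v1g245502, v1g127536 and v1g142985, the level was higher in Cu than in Cd, and 0 were lower (edgeR's quasi-likelihood test, with p adjusted after Benjamini and Hochberg to under 0.05). Over all 16276 tested genes 2.16% were called higher in Cu and 0.375% lower. The same 4 genes were higher in Cu than in Zn and 0 were lower, where 2.82% of all tested genes were called higher and 0.786% lower. DESeq2 gave 4 higher and 0 lower in each contrast, where it called 2.82% of all tested genes higher and 0.553% lower in Cu against Cd, and 3.4% and 0.928% in Cu against Zn. It gave no adjusted p to some members, among them v1g144857 and v1g145429 in both contrasts, and could not call these. Genes without an adjusted p stayed in the total for its percentages. An edgeR fit with no filter, in which all 23 genes were tested, also gave 4 and 0 in each, against 1.7% and 0.174% of all genes in Cu against Cd and 2.07% and 0.386% in Cu against Zn.

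v1g210079 had a log2 fold change of 5.09 ± 0.51 (SE) in Cu against Cd, with an edgeR adjusted p of 9.58e-06, and of 4.2 ± 0.45 (SE) against Zn, with an edgeR adjusted p of 1.73e-05. The value against Cd was 6.3 without Cd 2 and 4.47 without Cd 3, and that against Zn was 4.91 without Zn 2, all of them still called. Every Cu library lay above every Cd and Zn library.

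v1g127536 rested on fewer counts, 66 in Cu against 4 in Cd and 3 in Zn. Its ratio of summed counts was 18 against Cd (95% counting interval 6.71 to 68.1) and 25.5 against Zn (8.35 to 127), with edgeR adjusted p-values of 0.00294 and 0.0017. The fitted log2 fold change of 4.07 against Cd became 5.37 without Cd 1, 3.45 without Cd 3 and 3.47 without Cu 2, and that of 4.5 against Zn became 3.9 without Cu 2. Zn 2 held all its Zn counts, and the fitted value of 7.55 without that library depends on the prior count. All these fits still called the gene.

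v1g245502 had log2 fold changes of 3.41 ± 0.58 (SE) against Cd and 2.89 ± 0.53 (SE) against Zn (edgeR adjusted p = 0.00193 and 0.00359). It did not pass the filter from the Cu and Cd libraries alone, where the other 3 genes were called, and it was still called from the Cu and Zn libraries alone (edgeR adjusted p = 0.029). The value against Zn was 3.9 without Zn 1 and 2.27 without Zn 2. Without the 6 libraries on the high side of the within-group component, Cu 3 among them, its fold changes of 3.03 and 2.56 were no longer called (edgeR adjusted p = 0.111 and 0.132), and 3 of the 4 genes remained called in each contrast.

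v1g142985 had log2 fold changes of 3.04 ± 0.5 (SE) against Cd and 2.97 ± 0.49 (SE) against Zn (edgeR adjusted p = 0.00163 and 0.00158). Both leaned on Cu 2, and without it they were 2.45 and 2.38 and still called.

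The other tested members did not pass the threshold in either contrast, and nearly all of their fold changes were positive. With no filter 23 of 23 members had a positive log2 fold change in Cu against Cd, with a median of 0.908, where 48.9% of 23568 genes were positive and their median was 0. In Cu against Zn 22 of 23 were positive, with a median of 1.16, where 49.7% of these genes were positive and their median was 0. The exception, v1g240419, was at -0.48 ± 0.73 (SE) in the filtered fit. All members share the same Cu, Cd and Zn pools, so these counts of signs are a description and no test. Genes of like level were not compared, and some signs rest on few counts, such as 3 in Cu and 2 in Cd for v1g143610. Among the genes not called, v1g206031 had 2.88 ± 0.91 (SE) against Zn (edgeR adjusted p = 0.104) and v1g127482 had 2.07 ± 0.81 (SE) against Cd (edgeR adjusted p = 0.265). In 8 members every Cu library lay above every Cd library and in 11 above every Zn library, against 6.45% and 9.84% of all genes with a count.

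**Figure D5:**
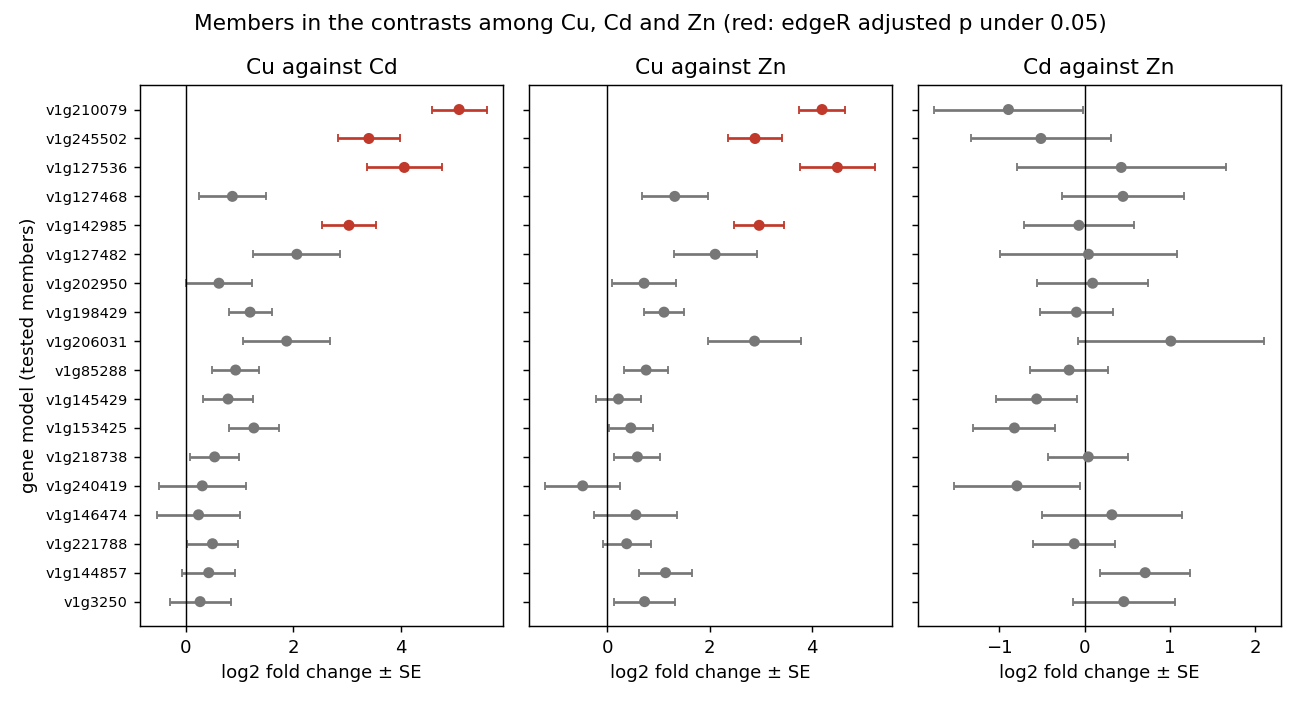
Log2 fold change with its standard error for the 18 tested genes in Cu against Cd, Cu against Zn and Cd against Zn, with edgeR calls in red. The same 4 genes are called in the first pair of contrasts, nearly all other points lie right of 0 there, and the points of Cd against Zn lie on both sides of 0.

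Cadmium and zinc gave no call between them. In Cd against Zn 0 members were higher and 0 lower by edgeR and 0 by DESeq2, where 0% of all tested genes were called, and 0 members had an unadjusted p under 0.05 (599 of all tested genes did). Standard errors of the log2 fold changes were wide, 0.87 for v1g210079 and 1.22 for v1g127536, which held 4 counts each in Cd. From the Cd and Zn libraries alone 1 member, v1g145429, passed the filter, so this contrast carries little information on the set. Every Cd library lay above every Zn library in 1 member, v1g143593, against 5.89% of all genes with a count.

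Against the controls, which the choice had fixed to be low, the other metals are given as description, and nothing is read from the counts of genes or of calls. Cu means exceeded control means in 22 of 23 genes, Zn means in 19 and Cd means in 15. The edgeR fit called 5 members higher in Cu than in control, the 4 genes above and v1g145429 (1.99 ± 0.5 SE on the log2 scale), with 0 lower, where 3% of all tested genes were called higher and 1.2% lower. The count was 4 by DESeq2, which called 3.61% of all tested genes higher and 1.56% lower, and also without control 1, 2 or 4 and without Cu 1 or Cu 2. No member was called in Cd or in Zn against control (edgeR, 0.0184% and 0.00614% of all tested genes called higher). In each, 1 of the 18 tested members had an unadjusted edgeR p under 0.05, as did 7.03% of all tested genes. DESeq2 called 0 members in both, where it called 0.111% of all tested genes higher in Cd and 0.0369% higher and 0.0184% lower in Zn. Every library lay above every control in 15 members for Cu, 1 for Cd (v1g127468) and 2 for Zn (v1g85288 and v1g145429), against 5.46%, 3.3% and 2.26% of all genes with a count.

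v1g145429 and v1g144857 were the members with most signal outside Hg and Cu. v1g145429 had 0.392, 0.165, 0.894 and 0.544 CPM in controls, 4.55, 2.19 and 4.81 CPM in Hg and 1.88, 2.98 and 1.25 CPM in Cu. Its Zn pools had 1.28, 2.26 and 1.46 CPM and lay above every control, and Zn 2 exceeded Hg 2. v1g144857 had 1.6, 1.81 and 0.395 CPM in the Cd pools, so that its Cd mean was 50.2% of its Hg mean, with Cd 3 in the control range of 0.262 to 0.894 CPM.

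The authors' deposited tables rest on the same counts, so their fold changes in Hg against control were bounded by the choice as well. In the authors' deposited table for Hg the folds of the 23 genes had a median of 8.94 and ran from 4.05 to 304. In the authors' deposited table for Cu they had a median of 2.89 and ran from 0.993 to 47.4. The 4 genes called in Cu against Cd were at 47.4 (v1g127536), 34.3 (v1g210079), 13.8 (v1g245502) and 7.8 (v1g142985). Folds above that of v1g142985 were also given for v1g127544 (10.7) and v1g127482 (8.16), which were not called. The authors' deposited tables for Cd and Zn gave medians of 1.21 and 1.32 and highest folds of 2.79 and 3.42.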

How the data were processed

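The authors deposited 4 tables, 1 per metal, with raw counts per gene model for 4 control libraries and 3 libraries of the metal, per the file headers. Each table repeats the control counts without change, so they entered once. The deposited base means are a normalized signal, the deposited fold change is their ratio, and the tables also hold p-values of the authors. For Cd, the column of adjusted values that the authors deposited exceeds 1 for some genes and counts as a score here. STAR, Partek and DESeq appear in the submitters' processing notes without version or role. A genome build, strand setting or batch was not given in the sources used here, so reads shared by similar or overlapping genes cannot be recognised. Labels present the pools as separate groups of animals, so that a p-value reflects how far pools of a group differ. The main fit estimated a shared spread for each gene from all 5 groups. Differences between the Hg pools therefore enter the tests among Cu, Cd and Zn.

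CPM is the count divided by the library's total. Tests used R 4.3.3 and edgeR 4.0.16: filterByExpr, TMM factors, all 16 libraries in 5 groups in a robust quasi-likelihood fit, with Benjamini-Hochberg adjustment over 16276 genes. The standard error is the log2 fold change divided by the square root of F. Counting intervals are exact (95%) and cover counting error only. DESeq2 1.42.0 and the other alternatives are given in the closing section. Fold changes of genes with few counts depend on the prior count.

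The members were chosen with earlier results of these data known. Genes were named by extremes of stated measures, at most 2 per measure (Hg mean, ratio to control, Cu share of Hg, Cu against Cd, Cd or Zn share of Hg, thresholds). Others named were chosen after their values were seen. Planned lists of stress genes could not be used, since 0 of 27273 identifiers matched the 38762 genes of the reference table.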

Additional observations from a re-analysis of the deposited data

Results flagged for a closer look

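Among 24 sets of control values tested (each of the 23 genes and their sum), 5 had 1 control library far from the other 3, where chance flags about 1 in 20 sets of continuous values. That rate does not carry over to these few counts with ties, and v1g198429 and v1g218738 had the same counts in every control. Control 2 was low for v1g142985, at 0.165 CPM from 1 count, against 5 to 7 counts in the others. Control 1 was low for v1g240419, at 0.131 CPM from 1 count against 3 in each other control. Control 4 was high for v1g198429 and for v1g218738, at 1.27 CPM from 7 counts in each, against 4 to 5 counts. Control 2 held the 1 control count of v1g127544, at 0.165 CPM.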

How the results depend on the processing

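The choice gave 23 genes with TMM-scaled levels and 24 with median-ratio size factors, all 23 among them. It gave 12 genes with a control limit of 0.5 CPM, 13 with a ratio of 8 and 12 with a Hg mean of 4 CPM. Leaving out 1 library gave 19 to 30 genes and kept 18 (without Hg 1) to 23 of the members, and without the 6 libraries of the high side (added after seeing the data) it gave 43, with 22 members kept. Counts of members called stayed within 1.5 times under every alternative run, at 3 to 5 in Cu against Cd and 3 to 4 in Cu against Zn, with 5 only without Cd 3. In Cu against Cd the median log2 fold change was 1.22 with the stricter filter and 0.87 to 1.18 without single libraries. In Cu against Zn it was 1.16 with no filter, 1.16 with the stricter filter, 2.91 in the 7 members testable from the compared groups alone, 0.99 to 1.26 without single libraries and 1.32 without the 6. In Cd against Zn it was -0.57 in the 1 member testable from those groups alone and -0.31 to 0.06 without single libraries. Against control the medians without single libraries were 1.38 to 1.72 in Cu, 0.18 to 0.43 in Cd and 0.28 to 0.55 in Zn, and without the 6 they were 0.3 in Cd and 0.18 in Zn. Leaving out a metal library lowers the filter, so that 22 members are tested, and the part of this in the shifts was not tested. Signs changed among uncalled values without single libraries, with -0.03 to 0.76 for v1g144857 in Cu against Cd and -0.12 to 0.51 for v1g145429 in Cu against Zn. In Cd against Zn they changed for v1g127536 (-0.87 to 3.48, and -1.41 without the 6), v1g142985 (-0.46 to 0.35) and v1g245502 (-1.13 to 0.49), and the cause was not tested. Same-number pools of different groups had correlations of -0.27 to 0.39, over 0.1 in 7 of 30. Among Hg 3, Cu 3 and Zn 3 they were 0.24 (Hg and Cu), 0.39 (Hg and Zn) and 0.26 (Cu and Zn). Those of Cd 3 with Hg 3, Cu 3 and Zn 3 were -0.27, -0.19 and -0.22. Whether pools of the same number share a batch was not tested. With a replicate block 4 members stayed higher in Cu against Cd and 4 in Cu against Zn, 4 in Cu against control, where the median in Cd was 0.33. Depth limits the weaker members, whose control, Cd and Zn levels rest on a few counts per library.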

Other observations

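Of the near-silent genes that met all other conditions, 62 missed only the Hg mean of 2 CPM and 12 only the ratio of 4. A further 159 genes, not near-silent, missed only the control limit of 1 CPM, at any level above it. Turned round, with a metal mean under 1 CPM and a control mean of at least 2 CPM, at least 4 times the metal mean and above every metal library, the thresholds chose 33 genes in Hg, 14 in Cu, 10 in Cd and 14 in Zn. All these counts share the same 4 control libraries.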
